A study of Homo sapiens with 19 samples.

Results

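The proteins of the mitochondrial ribosome were followed at the RNA level in the cell line MDA-MB-231, which derives from a human breast cancer, as 75 protein-coding genes out of the 17886 genes listed in all 3 deposited tables. Members were the genes whose symbols begin with MRPL or MRPS followed by a number, with at most a letter A to C after it, and that all 3 tables list. By textbook assignment 48 of them belong to the large subunit, 26 to the small subunit and 1, MRPS36, to neither, since MRPS36 carries a ribosomal name but is known as an adaptor of the alpha-ketoglutarate dehydrogenase complex. The bacterial ribosome has counterparts of 30 large-subunit and 17 small-subunit members, and 18 and 9 are specific to mitochondria. The symbol MRPL30 also fitted the naming rule but is listed in the siRNA tables alone, at no more than 2.87 normalized counts, and was left out, as was a second MRPS17 identifier of the siRNA tables (0 to 22.8).

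Mitochondria translate the mRNAs of their own small genome, all of which encode subunits of the respiratory chain and ATP synthase, on a ribosome of their own. Its RNAs come from the mitochondrial genome, while all of its proteins are encoded in the nucleus, made on cytosolic ribosomes and imported. The small subunit decodes the mRNA, the large subunit joins the amino acids, and the finished ribosome sits at the inner membrane, where the new chains are inserted.

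Total RNA was sequenced from 19 libraries in 8 groups and 3 separately normalized tables. The culture table held adherent cells grown in DMEM with fetal calf serum, spheres kept for 16 h and spheres kept for 5 d, both in suspension in non-adherent plates in DMEM/F12 to which B27, EGF and FGF were added (n = 2 each). In the siSCIRT table, cells were reverse transfected with siSCIRT#1, siSCIRT#2 or the control siNC and kept in sphere medium for 48 h (n = 3 each), and the siEZH2 table held siEZH2 and its own siNC treated in the same way (n = 2 each). SCIRT is a long noncoding RNA and EZH2 the methyltransferase of the Polycomb complex PRC2. Only 1 line was used, nothing states whether replicates came from separate cultures, and p-values therefore measure the spread between these libraries, which may be technical. The columns taken as siSCIRT#1 were assigned by inference, since their names carry no siRNA number.

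Recovered reads ranged from 6104222 to 14781941 in the culture libraries, from 38635418 to 62218847 in the siSCIRT table and from 27989577 to 38955312 in the siEZH2 table, so the culture values carry the largest counting error. SCIRT stood at 112 to 127 normalized counts with siSCIRT#1 and 105 to 159 with siSCIRT#2, against 256 to 287 with siNC, and EZH2 at 275 and 278 with siEZH2, against 518 and 529 with siNC. Over all libraries the mesenchymal markers VIM, CD44 and AXL reached at least 31500, 4470 and 2870 normalized counts, while ESR1 and CDH1 stayed at or under 21.1 and EPCAM at 23.2 to 520. PGR is listed in the siRNA tables alone, where it stayed at or under 2.75. Of 7 markers of other cell types the culture table lists 4. DCN moved with the culture, at 0 and 0.609 normalized counts in adherent cells, 1010 and 999 at 16 h, and 8.28 and 6.16 at 5 d. COL1A1 stood at 10.6 and 14.6, then 67.1 and 52.5, then 43.5 and 46.2, PDGFRB at 54.3 and 56, then 22.4 and 29.3, then 73.5 and 43.1, and PTPRC at 12.1 and 12.2, then 0 and 0, then 2.07 and 9.24 in the same order. Summed, the 4 stood at 77 and 83.4 in adherent cells, 1100 and 1080 at 16 h, and 127 and 105 at 5 d. Their part in the results was not tested.

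In spheres, single members moved far more than the set: MRPS6 fell most among the well-expressed members and MRPL16 rose most, at 16 h and at 5 d. At 16 h 8 of the 74 tested members rose and 22 fell against adherent cells, and at 5 d 10 rose and 28 fell. Without adherent replicate 1 or 2 the 16 h count was 19 in place of 30. The median log2 fold change was -0.11 at 16 h and -0.10 at 5 d, beside -0.01 and -0.02 over all 13789 genes tested. The members called were 40.5% at 16 h, beside a background of 53.9% of all genes tested, and 51.4% at 5 d, beside 55.2%, shares below the background both times. Differences of 2-fold or more were found for 2 members (2.70%) at 16 h and 6 (8.11%) at 5 d, beside 18.1% and 15.7% of all genes. A call here is an adjusted p under 0.05 in limma on log2(normalized count + 1), Benjamini-Hochberg adjusted over all genes tested. In bulk RNA, fewer cells making a transcript and less of it per cell cannot be told apart.

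The scaling between libraries weighs on the split between rises and falls. Dividing each library by its total reads instead of the authors' size factors shifts the median of all genes by -0.25 at 16 h and by -0.05 at 5 d, to -0.26 and -0.07. Member counts then become 1 rise and 44 falls at 16 h (median -0.36, or -0.10 relative to all genes) and 9 rises and 32 falls at 5 d (median -0.15). Of the 30 members called at 16 h, 23 keep their call and direction under that scaling and MRPL2 and MRPS2 turn sign without a call. At 5 d 37 of 38 keep it.

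**Figure D1:**
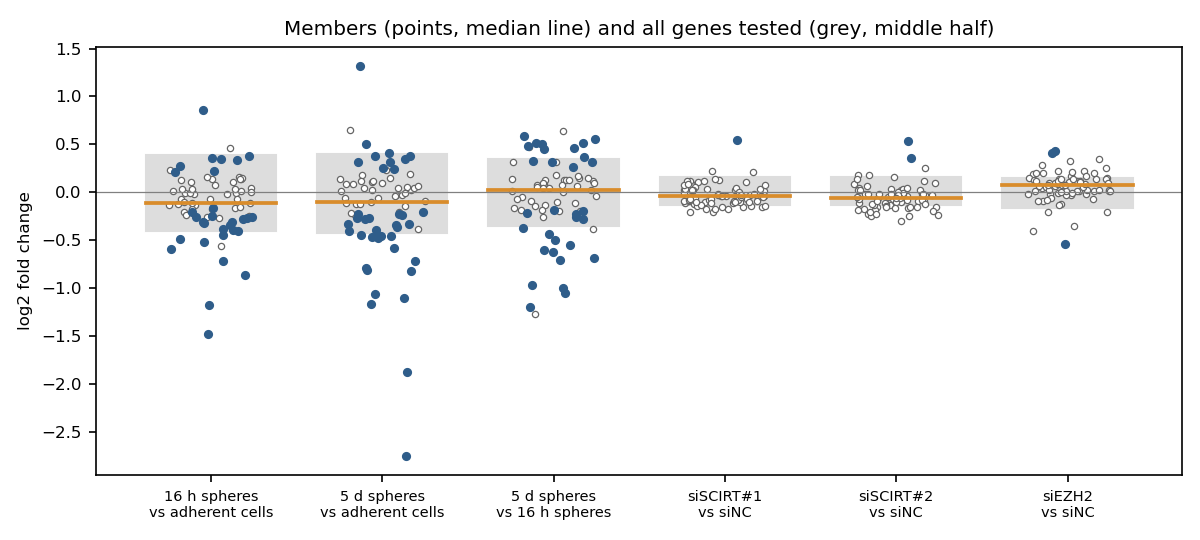
Log2 fold changes of the members in 6 comparisons, the first-named group over the second, with filled points past the adjusted p threshold, open points not past it, orange lines at the member median and grey boxes over the range between the lower and upper quartiles of all genes tested. The members' medians lie between -0.11 and 0.07 in all 6 comparisons, and the widest scatter is that of 5 d spheres against adherent cells.

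Members of both subunits were called. Over all genes tested, 27.4% rose and 26.5% fell at 16 h, and 26.3% rose and 28.9% fell at 5 d. In 16 h spheres 6 of 47 tested large-subunit members rose and 12 fell (median -0.07), and 2 of 26 small-subunit members rose and 10 fell (median -0.13). In 5 d spheres 7 large-subunit members rose and 15 fell (median -0.06), and 3 small-subunit members rose and 13 fell (median -0.15). The large-subunit member MRPL38 did not pass the filter of a mean of 10 normalized counts in the culture table, where it stood at 0 to 3.65, and it was tested only in the siRNA tables. By origin, 6 of 47 members of bacterial families rose and 15 fell at 16 h, and 2 of 26 mitochondria-specific members rose and 7 fell. At 5 d the counts were 8 rises and 17 falls among bacterial families, and 2 rises and 11 falls among mitochondria-specific members. The differences between subunits and between origins were not tested.

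Summed over members, normalized counts were 36184 and 36131 in adherent cells, 33394 and 33651 at 16 h, and 32137 and 32682 at 5 d. The 3 cultures did not overlap, and the sum was lowest at 5 d. As a share of all normalized counts it was instead lowest at 16 h, at 4002 and 4015 CPM in adherent cells, 3108 and 3128 CPM at 16 h, and 3457 and 3475 CPM at 5 d. Large-subunit sums averaged 21965 ± 120, 21105 ± 2.83 and 20984 ± 209 in adherent cells, 16 h and 5 d spheres (SD, n = 2 each), and small-subunit sums 13878 ± 163, 12100 ± 199 and 11153 ± 130. The ratio of large to small sums was 1.58, 1.74 and 1.88 in the same order. It is free of the scaling between libraries, although it mixes transcripts of different length and is no stoichiometry. MRPS6 alone averaged 1139 normalized counts of the small-subunit sum in adherent cells, 505 at 16 h and 308 at 5 d.

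Cytosolic ribosomal protein mRNAs took another course. Their sum averaged 524363 in adherent cells, 751526 at 16 h and 439724 at 5 d, so the mitochondrial sum was 6.90%, 4.46% and 7.37% of the cytosolic one in that order. Of 79 cytosolic ribosomal protein genes tested, 75 rose and 1 fell at 16 h (median 0.50), and 9 rose and 57 fell at 5 d (median -0.29). With quantile normalization the 16 h median was 0.11 with 45 rises and 13 falls, and with total-read scaling it was 0.25 with 68 rises and 2 falls. The mRNAs of the mitochondrial genome, which the mitochondrial ribosome translates, rose in 12 of 13 cases at 16 h (median 0.30) and in 11 at 5 d (median 0.43), but quantile normalization turned the 16 h median to -0.45 with 0 rises and 12 falls and gave 6 rises and 3 falls at 5 d. With total-read scaling 7 rose and 5 fell at 16 h.

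**Figure D2:**
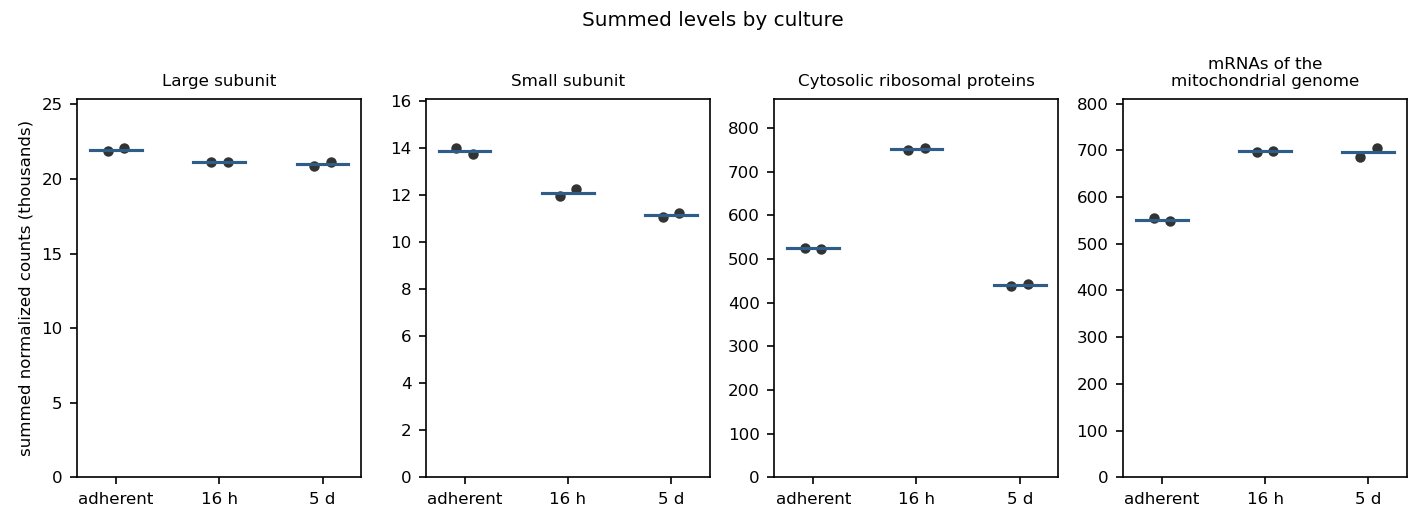
Summed normalized counts (axis in units of 1000) of large-subunit members, small-subunit members, cytosolic ribosomal protein genes and mRNAs of the mitochondrial genome in adherent cells and in spheres of 16 h and 5 d, with 1 point per library and lines at the mean of 2 libraries. The small-subunit sum is lower in both sphere groups than in adherent cells, while the cytosolic sum is highest at 16 h.

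Other genes of the pathway gave mixed counts. Of 7 mitoribosome proteins under other symbols, 3 rose and 1 fell at 16 h, with 0 rises under quantile normalization or total-read scaling. They include DAP3, a small-subunit GTP-binding protein (0.17 ± 0.07, SE), and PTCD3 (0.23 ± 0.08). At 5 d 1 rose and 3 fell, with AURKAIP1 at -0.74 ± 0.10. Of 23 assembly factors tested, 1 rose and 8 fell at 16 h (median -0.15) and 2 rose and 10 fell at 5 d (median -0.25). They include the methyltransferase-like METTL17 (-0.96 ± 0.12 at 16 h and -0.70 ± 0.12 at 5 d), the helicase DDX28 (-0.93 ± 0.16 and -0.96 ± 0.16), ERAL1, a chaperone of the small-subunit rRNA (-0.72 ± 0.09 at 5 d), and MPV17L2 (-0.98 ± 0.14 at 5 d).

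Among 16 mitochondrial translation factors 3 rose and 5 fell at 16 h (median -0.14; 0 and 11 with total-read scaling) and 4 rose and 3 fell at 5 d (median 0.05). The elongation factor GFM1 fell at 16 h (-0.82 ± 0.12), while GUF1 rose at both times (0.32 ± 0.08 and 0.74 ± 0.08), at 16 h not with total-read scaling. Of 14 regulators of mitochondrial biogenesis, 3 rose and 4 fell at 16 h (0 and 5 with total-read scaling) and 2 rose and 8 fell at 5 d (median -0.38). The coactivator PPARGC1A averaged 56.7 normalized counts in 16 h spheres and 231 in adherent cells (-2.01 ± 0.19). TFAM, which packages the mitochondrial genome and activates its transcription, fell by 0.49 at 16 h and 0.58 at 5 d on the log2 scale. Of 73 nuclear genes of the respiratory chain, 23 rose and 12 fell at 16 h (median 0.05) and 31 rose and 18 fell at 5 d (median 0.11), against a median of -0.20 with 7 rises and 39 falls at 16 h with total-read scaling.

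**Figure D3:**
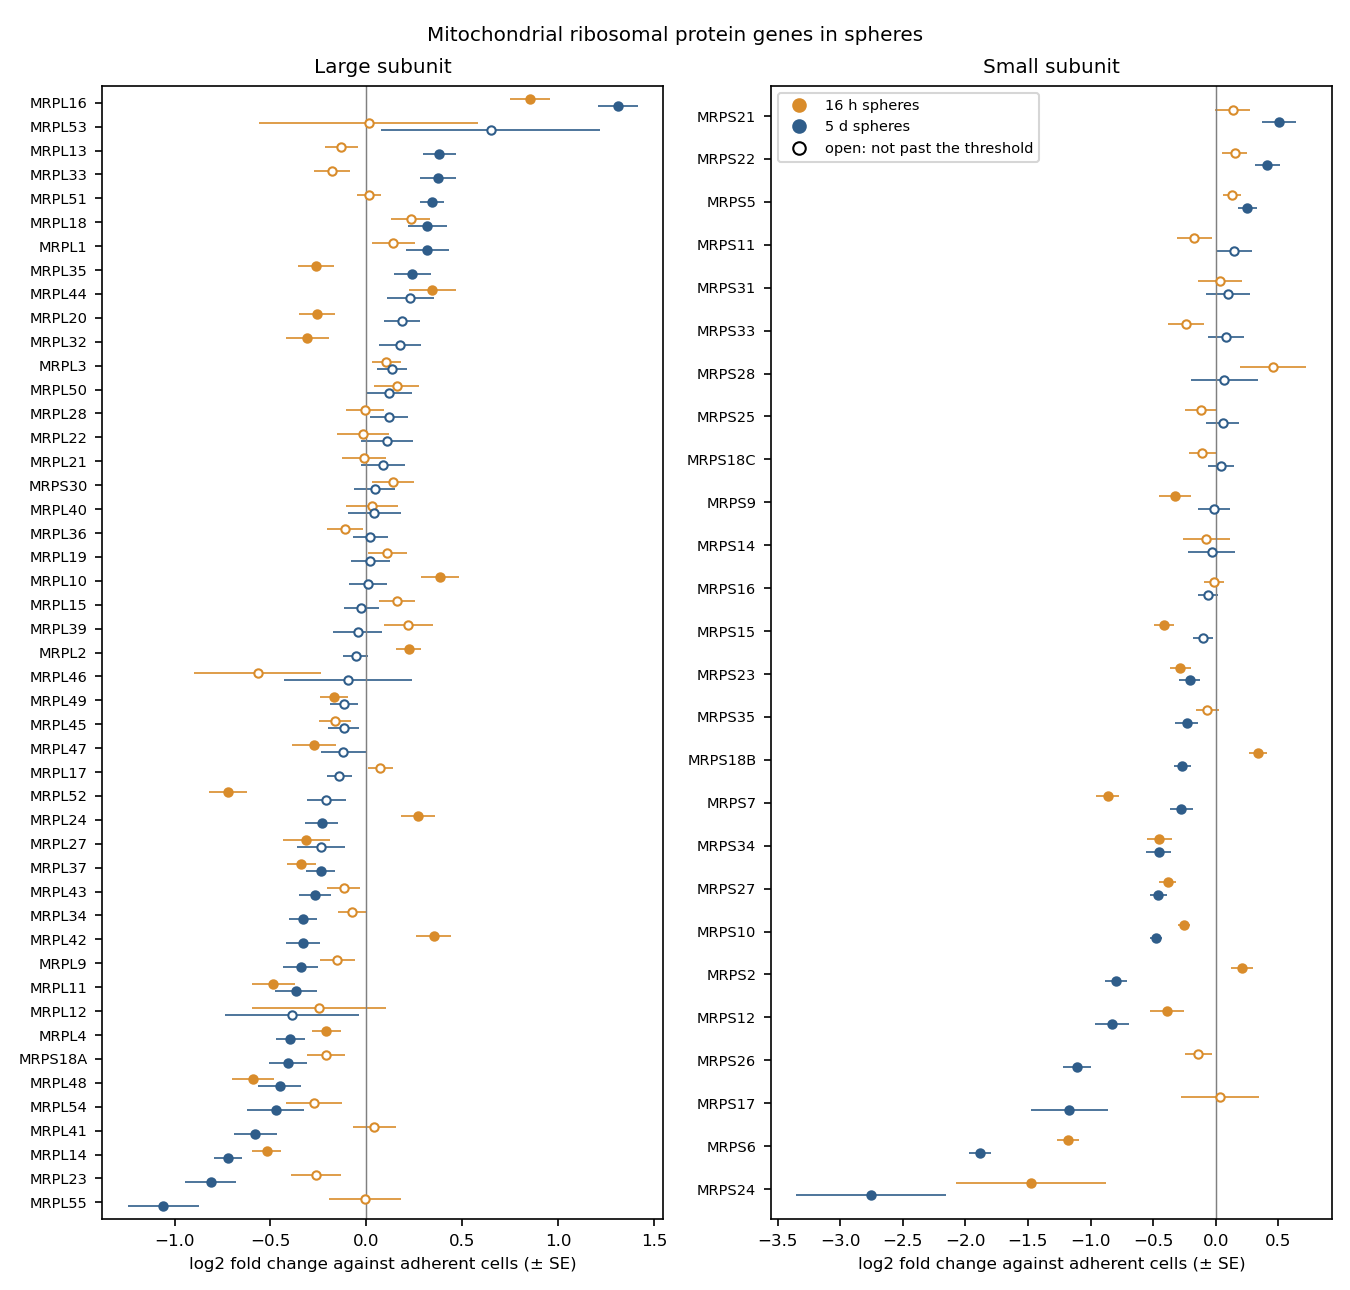
Log2 fold change with its SE of every tested large-subunit and small-subunit member in 16 h spheres (orange) and 5 d spheres (blue) over adherent cells, with open points for values not past the threshold. MRPL16 rose most at both times, and MRPS6 and the weakly expressed MRPS24 fell most.

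The largest well-expressed fall was that of MRPS6, the small-subunit counterpart of bacterial S6, a protein of the platform. Adherent cells held 1162 and 1116 normalized counts of it, 16 h spheres 548 and 462, and 5 d spheres 309 and 308. No libraries of different cultures overlapped, and the level was lower at each later time. At 16 h the fall of MRPS6 was -1.18 ± 0.09 (adjusted p = 3.02e-14). At 5 d it was -1.88 ± 0.09 (adjusted p = 3.75e-20), and 5 d spheres were lower than 16 h spheres (-0.70 ± 0.09, adjusted p = 2.24e-08). All 3 differences kept their call in each of 17 alternatives.

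In GRCh38.p14 the RefSeq start of MRPS6 lies on the plus strand of chromosome 21, and the start of SLC5A3, a myo-inositol transporter gene, has the same position in the table, with the same 300-base window at chr21:34073328-34073627. The promoter is shown because MRPS6 was called in more comparisons than any other member. Its exons also share bases with SLC5A3 and with AP000317.2 on the same strand in GENCODE 29, so its counts are uncertain in that respect. SLC5A3 is not listed in the tables used here, so its part in the MRPS6 counts was not tested. None of the 5 motifs described after it occurs in the 250 bases before the start, at chr21:34073328-34073577.
MRPS6: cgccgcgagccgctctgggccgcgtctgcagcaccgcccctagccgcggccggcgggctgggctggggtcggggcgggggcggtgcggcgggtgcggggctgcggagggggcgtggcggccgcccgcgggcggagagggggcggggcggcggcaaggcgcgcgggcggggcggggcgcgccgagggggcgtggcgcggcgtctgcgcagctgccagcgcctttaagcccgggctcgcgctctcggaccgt

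The promoters of the members were read from RefSeq as windows of 300 bases, from 250 before to 50 after each start, for 66 of 75 members, and 5 motifs were searched on both strands. The site of NRF1, a regulator of nuclear genes for mitochondria, was searched as GCGC, any base and TGCGC in a row, and occurred in 6 windows (9.09%), beside 12.1% of 8968 protein-coding genes tested in the culture table with a window and 6.28% of all 27305 promoters. The ETS core CCGGAAG occurred in 27 (40.9%), beside 19.8% and 10.7%, and the YY1 site AANATGGCG in 18 (27.3%), beside 7.34% and 3.37%. The E-box CACGTG occurred in 6 (9.09%), beside 10.3% and 7.43%, and CCAAT in 20 (30.3%), beside 36.7% and 35.7%. The 26 culture-tested members with the ETS core had medians of -0.158 at 16 h and -0.01 at 5 d. The 39 without it had -0.075 and -0.14, so the order of the medians differed between the times. Members with and without the YY1 site had medians of -0.15 and -0.11 at 16 h and of -0.10 and -0.12 at 5 d. These are matches of letters, not bound sites, and the differences were not tested.

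MRPL16 was the only member called higher at both times (1.35%, beside 16.9% of all genes tested), although some alternatives added MRPL18, MRPL44 or MRPS5. The protein is the counterpart of bacterial L16 and lies close to the peptidyl transferase centre, where amino acids are joined. Its normalized counts were 232 and 219 in adherent cells, 402 and 415 at 16 h, and 571 and 553 at 5 d, with no overlap between cultures. The rise was 0.85 ± 0.10 at 16 h (adjusted p = 5.17e-09) and 1.31 ± 0.10 at 5 d (adjusted p = 1.16e-13). It was also called in 5 d spheres against 16 h spheres (0.46 ± 0.10, adjusted p = 0.000319), and 17 of 17 alternatives kept the calls against adherent cells.

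Members lower at both times numbered 13 of 74 (17.6%, beside 16.4% of all genes tested), 8 of them in the small subunit. Without adherent replicate 2 they were 7, and with total-read scaling 25. Besides MRPS6 they were MRPS7, MRPS10, MRPS12, MRPS23, MRPS24, MRPS27 and MRPS34 of the small subunit and MRPL4, MRPL11, MRPL14, MRPL37 and MRPL48 of the large subunit. MRPS12, the counterpart of the decoding-centre protein S12, had 282 and 307 normalized counts in adherent cells, 212 and 236 at 16 h, and 166 and 165 at 5 d (-0.39 ± 0.14 and -0.83 ± 0.14). MRPL14, at the interface between the subunits, had 985 and 968, then 707 and 656, then 586 and 598 in the same order (-0.52 ± 0.07 and -0.72 ± 0.07). The libraries of both genes kept the cultures apart, with the lowest values at 5 d. MRPL48 fell by 0.59 ± 0.11 and 0.45 ± 0.11, at 264 and 277 normalized counts at 16 h and 303 and 293 at 5 d, against 408 and 408 in adherent cells.

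In GENCODE 29, 40 of 73 members found share exonic bases with another gene, 15 of them on the same strand and 29 on the opposite one, and for these the counts could hold reads of the neighbour. MRPS24 had the largest fitted falls but few reads. It stood at 34.7 and 25.6 normalized counts in adherent cells, 7.46 and 13.4 at 16 h, and 7.25 and 1.54 at 5 d. The fitted values were -1.48 ± 0.60 at 16 h (adjusted p = 0.0359) and -2.75 ± 0.60 at 5 d (adjusted p = 0.000174). The 16 h call was lost with DESeq2, without the variance trend, without adherent replicate 1 or 2 and without replicate 1 of the 16 h spheres. Its exons are shared with the readthrough gene URGCP-MRPS24, and URGCP itself fell at 5 d (-1.03 ± 0.18, adjusted p = 2.45e-05).

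Some members were lowest at 16 h. MRPS7, the head protein of the small subunit and counterpart of S7, had 659 and 639 normalized counts in adherent cells, 378 and 336 at 16 h, and 508 and 565 at 5 d. It was thus lowest at 16 h (-0.86 ± 0.09, adjusted p = 3.41e-10) and higher at 5 d than at 16 h (0.59 ± 0.09, adjusted p = 1.83e-06), and below adherent cells at 5 d (-0.28 ± 0.09, adjusted p = 0.0114), a call lost without adherent replicate 1, without replicate 1 of the 5 d spheres and without the variance trend. MRPL52, mitochondria-specific, followed with 496 and 593, then 340 and 318, then 490 and 450 (-0.72 ± 0.10 at 16 h, adjusted p = 1.19e-07). Its 5 d libraries lay below the adherent ones without passing the threshold (-0.21 ± 0.10, adjusted p = 0.0784).

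In all, 7 members fell at 16 h and were higher at 5 d than at 16 h, namely MRPL20, MRPL32, MRPL35, MRPL52, MRPS7, MRPS9 and MRPS15 (9.46%, beside 11.9% of all genes tested). They were 4 without adherent replicate 1 or without replicate 1 of the 16 h spheres, and 24 with total-read scaling. The opposite course, a rise at 16 h and a lower level at 5 d than at 16 h, was called for 6 members, MRPL2, MRPL10, MRPL24, MRPL42, MRPS2 and MRPS18B (8.11%, beside 13.4% of all genes tested). They were 3 without adherent replicate 1, and with total-read scaling the rise at 16 h is called for none of these 6. The remaining rises at 16 h were those of MRPL16 and MRPL44. MRPL44, with an RNase III-like fold, rose by 0.34 ± 0.12 (adjusted p = 0.0178) and lost its call with total-read scaling (0.09), without adherent replicate 1 or 2 and without replicate 2 of the 16 h spheres. MRPL42 had 505 and 499 normalized counts in adherent cells, 648 and 634 at 16 h, and 376 and 424 at 5 d.

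A separate set of falls appeared between 16 h and 5 d. MRPS26, mitochondria-specific, had 426 and 480 normalized counts in adherent cells, 402 and 420 at 16 h, and 218 and 200 at 5 d. The 5 d libraries were the low ones (-1.11 ± 0.11 against adherent cells, adjusted p = 6.51e-11, and -0.97 ± 0.11 against 16 h spheres, adjusted p = 2.37e-09), and the 16 h value was -0.14 ± 0.11 (adjusted p = 0.306). MRPS2, the counterpart of S2, had 635 and 608, then 702 and 734, then 347 and 368 in that order. It fell by 0.80 ± 0.09 at 5 d (adjusted p = 4.79e-10).

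MRPL55, a relative of bacterial L31, had 184 and 164 normalized counts in adherent cells, 142 and 211 at 16 h, and 82.8 and 83.2 at 5 d. Only the 5 d libraries lay apart (-1.06 ± 0.19 against adherent cells, adjusted p = 8.35e-06). MRPS17 fell at 5 d on few reads, at 21.7 and 33.9 normalized counts, against 67.2 and 57.8 in adherent cells (-1.17 ± 0.31, adjusted p = 0.0016). Its exons share bases with NIPSNAP2, listed in these tables as GBAS, which stood at 0.04 ± 0.10 in the same comparison.

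Rises at 5 d without one at 16 h were smaller. The largest were those of MRPS21, the counterpart of S21 (0.50 ± 0.14), MRPS22, mitochondria-specific (0.41 ± 0.10), MRPL13 (0.38 ± 0.08) and MRPL33 (0.37 ± 0.09). MRPS22 had 532 and 475 normalized counts in 5 d spheres, against 388 and 367 in adherent cells. MRPS21 lost its call without replicate 2 of the 5 d spheres (0.33) and MRPL33 without replicate 2 of the adherent cells (0.27).

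**Figure D4:**
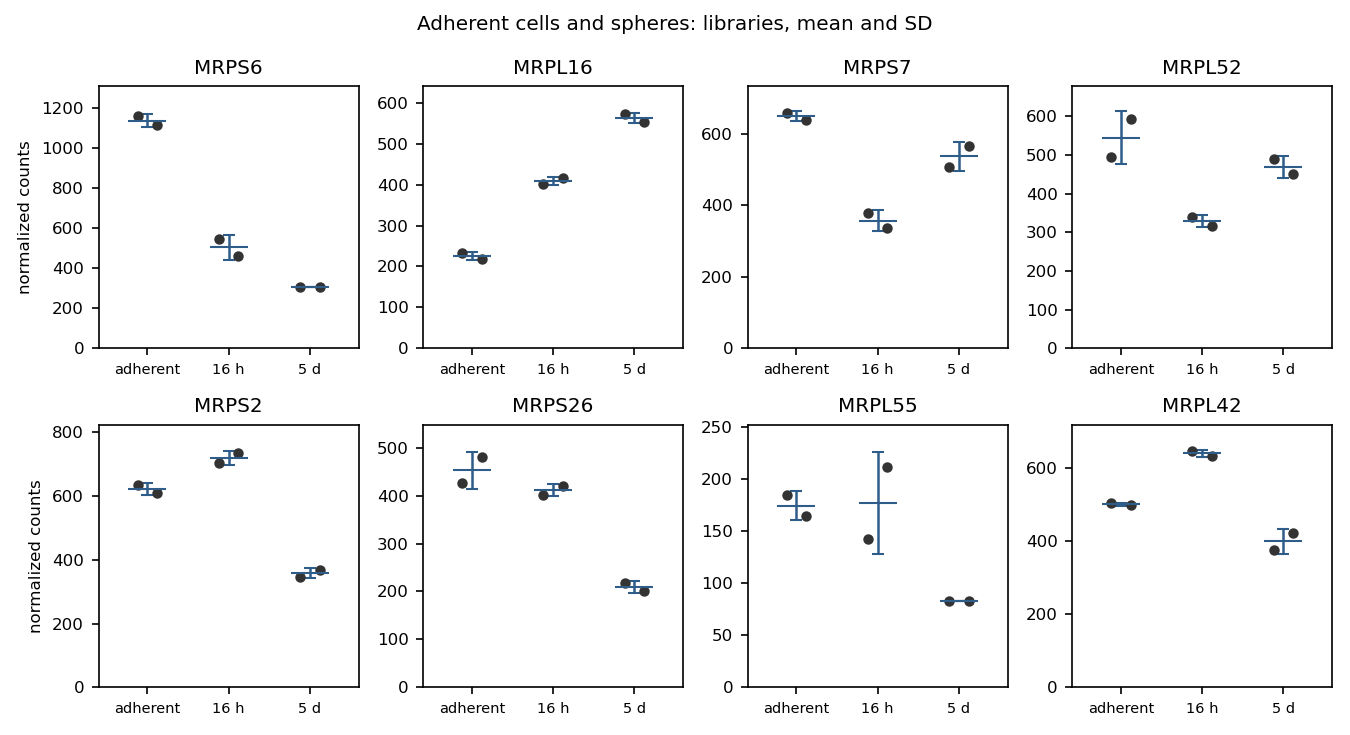
Normalized counts of 8 members in the 3 culture groups (adherent, 16 h and 5 d), with 1 point per library and bars for the mean ± SD of 2 libraries. MRPS6 is lower and MRPL16 higher at each later time, MRPS7 and MRPL52 are lowest at 16 h, and MRPS2, MRPS26, MRPL55 and MRPL42 are lowest at 5 d.

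Between the sphere groups, 5 d spheres differed from 16 h spheres in 31 members, 13 higher and 18 lower of 74 (41.9%, beside a background of 48.3% of all genes tested), with a median of 0.02 beside 0.00 over all genes. Total-read scaling shifts the median of all genes by 0.20 and gives 32 rises and 10 falls. The largest rises were those of MRPS7, MRPL33 (0.55 ± 0.09), MRPL52 (0.51 ± 0.10), MRPL13 (0.51 ± 0.08) and MRPL35 (0.50 ± 0.10), and the largest falls those of MRPS17, MRPL55, MRPS2, MRPS26 and MRPS6. MRPS17 stood at 87.4 and 46.4 normalized counts at 16 h and lost its call without replicate 1 of the 16 h spheres (-0.75). The comparison uses the same 16 h and 5 d libraries as the comparisons with adherent cells. Members within 0.5 log2 units of no difference numbered 57 of 74 here, 61 for 5 d spheres and 66 for 16 h spheres against adherent cells. The quartiles of all genes tested also lay within 0.5. They were -0.36 and 0.34 here, -0.43 and 0.40 for 5 d spheres, and -0.41 and 0.39 for 16 h spheres against adherent cells. Called in none of the 3 culture comparisons were 24 of 74 members, and the other 50 (67.6%, beside 75.5% of all genes tested) were called in at least 1.

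Calls also differed within structural groups, without a test of the differences between genes. Of the stalk, which recruits translation factors, MRPL10 rose at 16 h (0.38 ± 0.10, adjusted p = 0.00116) and stood at 0.01 ± 0.10 at 5 d, MRPL11 fell at both times (-0.49 ± 0.11 and -0.37 ± 0.11, the second not called without replicate 2 of the adherent cells or of the 5 d spheres), and MRPL12, at 23.2 to 49.0 normalized counts, was not called (-0.25 ± 0.35 and -0.39 ± 0.35). The 3 paralogs of bacterial S18 had unlike calls as well. MRPS18B rose at 16 h (0.34 ± 0.07) and fell at 5 d (-0.27 ± 0.07, or -0.13 and not called without replicate 2 of the 5 d spheres), MRPS18A, which sits in the large subunit, fell at 5 d (-0.41 ± 0.10), and MRPS18C was not called at either time (-0.11 ± 0.11 and 0.04 ± 0.11). MRPL45, which tethers the ribosome to the inner membrane at the tunnel exit, and MRPS36 were not called in the culture table (MRPL45 -0.16 ± 0.08 and -0.12 ± 0.08, MRPS36 0.01 ± 0.12 and -0.21 ± 0.12).

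Few members were called after knockdown of SCIRT, and MRPS6 was the one called with both siRNAs. With siSCIRT#1 1 of 75 members rose and 0 fell against siNC, beside 10.2% of all 16607 genes tested, and with siSCIRT#2 2 rose and 0 fell, beside 9.54%. In the same comparisons edgeR and DESeq2 each called 1 member with siSCIRT#1, beside 10.4% and 13.3% of all genes. With siSCIRT#2 each called 3, beside 9.65% and 13.0%. At an unadjusted p under 0.05 the limma fits held 4 and 8 members, beside 3969 and 3922 of the 16607 genes tested. The medians were -0.04 and -0.06, beside 0.01 over all genes in both. With each siRNA 74 of 75 members lay within 0.5 log2 units of no difference. The quartiles of all genes tested also did, at -0.13 and 0.16 with siSCIRT#1 and -0.14 and 0.16 with siSCIRT#2. Both comparisons use the same 3 siNC libraries, and the mean of both siRNAs against siNC gave 2 rises and 0 falls beside a background of 14.4%. Between siSCIRT#1 and siSCIRT#2 no member was called (0 by limma, edgeR and DESeq2), beside a background of 0.0% in limma. At an unadjusted p under 0.05 limma held 0 members, beside 451 of the 16607 genes tested.

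The member that rose with both siRNAs was MRPS6. It had 2659, 2519 and 2880 normalized counts with siSCIRT#1, and 2801, 2763 and 2445 with siSCIRT#2, against 1823, 2052 and 1677 with siNC. Every knockdown library lay above every control library. The rise was 0.54 ± 0.09 with siSCIRT#1 (adjusted p = 0.000791) and 0.53 ± 0.09 with siSCIRT#2 (adjusted p = 0.0011), called in all alternatives run (19 and 20). As in the culture table, its shared exons with SLC5A3 apply.

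MRPS9, the counterpart of S9, whose tail reaches the decoding site in bacteria, rose with siSCIRT#2, at 697, 704 and 691 normalized counts, against 566, 542 and 529 with siNC (0.35 ± 0.09, adjusted p = 0.027). With siSCIRT#1 it had 718, 591 and 604, above siNC in every library and not past the threshold (0.22 ± 0.09, adjusted p = 0.167). The mean of both siRNAs passed (0.29 ± 0.08, adjusted p = 0.0272). The siSCIRT#2 call was lost in 6 of 20 alternatives, among them without any single siSCIRT#2 replicate and without siNC replicate 1 or 3. Without siNC replicate 2, 6 members were called with siSCIRT#2, 2 higher and 4 lower (MRPL3, MRPL11, MRPL13 and MRPL35), and 2 with siSCIRT#1.

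The summed members took 2954, 2652 and 2667 CPM (of all normalized counts) with siSCIRT#1, and 2893, 2692 and 2573 with siSCIRT#2, against 2896, 2570 and 2917 with siNC, with all 3 groups overlapping. Of the comparison lists, DAP3 rose (0.40 ± 0.05 for the mean of both siRNAs), as did the inner-membrane insertase OXA1L (0.21 ± 0.05) and PPARGC1A (0.35 ± 0.09), while MYC fell (-0.25 ± 0.05). Of the 13 mRNAs of the mitochondrial genome 0 rose and 5 fell for the mean of both siRNAs (median -0.22), for example MT-ND1 (-0.25 ± 0.06), and 2 fell under quantile normalization. None of 24 assembly factors was called for the mean of both siRNAs (0 by limma, beside 14.4% of all genes). In limma 4 of them had an unadjusted p under 0.05, beside 4658 of the 16607 genes tested.

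Knockdown of EZH2 changed 3 of 75 members, 2 higher and 1 lower, beside a background of 6.84% of the 15823 genes tested. The median was 0.07, beside 0.01 over all genes. MRPL17, close to the exit tunnel, had 4252 and 3970 normalized counts with siEZH2, against 2764 and 3354 with siNC (0.43 ± 0.12, adjusted p = 0.00752). MRPL45 had 2096 and 1884 with siEZH2, against 1461 and 1538 with siNC (0.41 ± 0.12, adjusted p = 0.0185). MRPL37, mitochondria-specific, was the one that fell, at 1389 and 1338 with siEZH2, against 1995 and 1965 with siNC (-0.54 ± 0.12, adjusted p = 0.00059). In none of the 3 did the groups overlap.

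These calls rest on 2 libraries a group. Without replicate 1 of siNC MRPL17, MRPL45 and MRPL37 all lost their calls in limma. With all libraries edgeR and DESeq2 each called 3 members, beside 6.88% and 4.27% of all genes. In limma 8 members had an unadjusted p under 0.05, beside 2974 of the 15823 genes tested. With total-read scaling MRPL17 and MRPL45 lost their calls (0.37 and 0.35) while MRPL37 kept its own. Both also lost them without siEZH2 replicate 1 (0.38 and 0.33), and MRPL45 without siNC replicate 2 (0.44). MRPL37 shares exonic bases with CYB5RL and SSBP3 on the opposite strand, and the library kit does not mark strand. MRPS6 had 2691 and 2254 normalized counts with siEZH2, against 1961 and 2457 with siNC, with overlap (0.17 ± 0.12, adjusted p = 0.485). MRPS36 had 916 and 766 with siEZH2, against 1024 and 1123 with siNC (-0.36 ± 0.13, adjusted p = 0.0685). The summed members took 2837 and 2623 CPM with siEZH2, against 2694 and 2656 CPM with siNC, with overlap, while their normalized counts did not overlap (98827 and 92427 with siEZH2, against 88321 and 91518 with siNC). Called in no siRNA comparison against siNC were 70 of 75 members (93.3%, beside 79.8% of the 15369 genes tested in both siRNA tables).

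**Figure D5:**
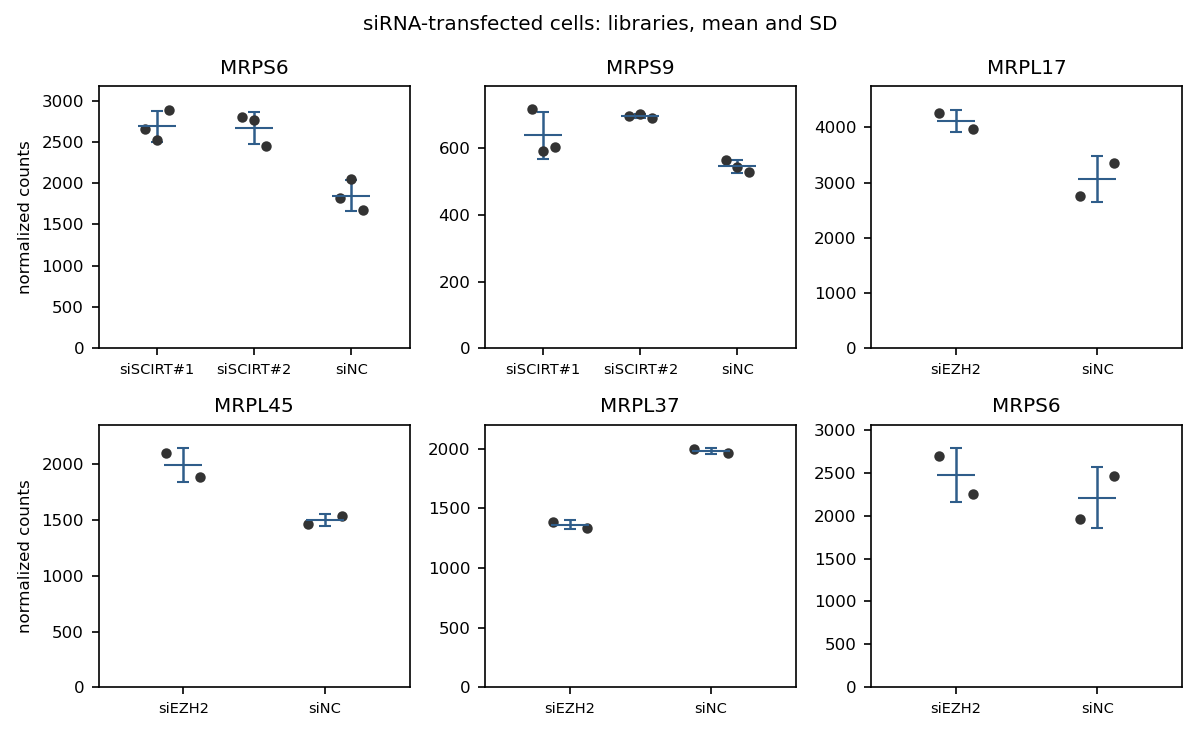
Normalized counts with siSCIRT#1, siSCIRT#2 and siNC (MRPS6 and MRPS9) and with siEZH2 and siNC (MRPL17, MRPL45, MRPL37 and MRPS6), with 1 point per library and bars for the mean ± SD of 3 libraries in the siSCIRT table and 2 in the siEZH2 table. MRPS6 lies above siNC in all 6 SCIRT knockdown libraries and overlaps its control in the siEZH2 table.

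MRPS9, MRPL17 and MRPL45, 3 of the 5 members called with an siRNA, are among the 6 members whose promoter windows hold the NRF1 motif, which was noticed after the values were seen. The other 3 are MRPL14, MRPL36 and MRPS33, none of them called with an siRNA. MRPS9 was called with siSCIRT#2, and MRPL17 and MRPL45 with siEZH2. These calls were lost in 6 of 20, 5 of 13 and 6 of 13 alternatives in that order, and a link with the motif was not tested. The 250 bases before each start are shown in GRCh38.p14, with matches of all 5 motifs in capitals. The NRF1 match begins 40 bases before the start of MRPS9 (chr2:105037819-105038068, plus strand), 81 before that of MRPL17 (chr11:6683341-6683590, minus strand) and 189 before that of MRPL45 (chr17:38296918-38297167, plus strand), where an E-box match begins 133 before it. In MRPS9 a CCAAT match begins 140 bases before the start, and the YY1 match of its 300-base window is not within the 250 bases shown.
MRPS9: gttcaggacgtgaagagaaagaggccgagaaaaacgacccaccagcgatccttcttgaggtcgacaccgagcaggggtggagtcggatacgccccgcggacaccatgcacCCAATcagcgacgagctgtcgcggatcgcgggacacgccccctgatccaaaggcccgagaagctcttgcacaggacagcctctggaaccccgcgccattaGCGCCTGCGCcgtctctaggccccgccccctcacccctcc
MRPL17: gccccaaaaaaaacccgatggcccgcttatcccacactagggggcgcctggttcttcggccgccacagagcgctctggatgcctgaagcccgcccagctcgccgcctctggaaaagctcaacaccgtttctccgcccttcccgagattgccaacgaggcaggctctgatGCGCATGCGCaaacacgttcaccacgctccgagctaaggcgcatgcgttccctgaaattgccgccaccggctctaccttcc
MRPL45: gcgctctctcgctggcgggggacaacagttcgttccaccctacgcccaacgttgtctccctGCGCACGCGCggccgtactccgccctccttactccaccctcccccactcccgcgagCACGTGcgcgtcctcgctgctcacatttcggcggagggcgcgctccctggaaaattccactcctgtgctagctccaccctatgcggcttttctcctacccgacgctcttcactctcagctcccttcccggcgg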

How the data were processed

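RNA-seq of 19 MDA-MB-231 libraries was analysed from 3 deposited tables. Per the submitters' processing notes CASAVA 1.4, TopHat2, Partek and the build hg19 were used, with no roles given; per the labels the kit was TruSeq RNA v2. The culture and siSCIRT tables hold log2 values deposited by the authors on a variance-stabilized scale, found from the values, which were inverted to normalized counts. The siEZH2 table holds the signal the authors deposited as counts divided by size factors. Whole reads came out for 100% of values (tolerance 0.05), used only for edgeR 4.0.16 and DESeq2 1.42.0 as alternatives. The design had assumed linear values throughout.

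The main test was limma 3.58.1 (R 4.3.3; moderated with trend and robust settings, two-sided) on log2(normalized count + 1), which understates changes of low genes. Each table was fitted separately with all its groups, for genes with a mean of at least 10, and p-values were Benjamini-Hochberg adjusted over all genes tested. Named members were the 5 largest rises and 5 largest falls called with at least 50 normalized counts in the higher group, plus MRPL10, MRPL11, MRPL12, MRPS18A, MRPS18B, MRPS18C, MRPL45, MRPS36 and members under the filter, and up to 4 genes of each comparison list by adjusted p; other names were chosen after their values were seen. The members and lists were chosen with earlier results of these data known. Alternatives were other pseudocounts, filters, normalizations, tools and fits, a replicate block, each library left out and, added after seeing the data, scaling to total reads. The scripts were tested on simulated data. Library depth limits precision, and the columns taken as siSCIRT#1 carry no replicate numbers.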

Additional observations from a re-analysis of the deposited data

Results flagged for a closer look

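In 5 members the difference from adherent cells was called in opposite directions in 16 h and 5 d spheres. The difference between the sphere times, also called in limma, follows from these values of the same libraries and adds no separate evidence. MRPS2 stood at 0.21 at 16 h and -0.80 at 5 d on the log2 scale, with 5 d spheres at -1.0 relative to 16 h spheres. MRPL42 stood at 0.35 and -0.33 (-0.68 between the times), MRPS18B at 0.34 and -0.27 (-0.60), and MRPL24 at 0.27 and -0.23 (-0.50). MRPL35 took the other course, at -0.26 and 0.24 (0.50). MRPL24 had 542 and 614 normalized counts in adherent cells, 657 and 735 at 16 h and 476 and 505 at 5 d, while MRPL35 had 430 and 421, 352 and 358, and 512 and 493.

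With total-read scaling the difference between the sphere times stayed called in all 5 (-0.80, -0.48, -0.40, -0.30 and 0.70 in the order above), while the 16 h rises of MRPS2 (-0.04), MRPL42 (0.10), MRPS18B (0.08) and MRPL24 (0.02) and the 5 d rise of MRPL35 (0.19) lost their calls. Leaving out adherent replicate 1, or adherent replicate 2, left only MRPL42 and MRPS18B of the 5 called in opposite directions, as did DESeq2. Without replicate 1 of the 16 h spheres 3 members were so called, as without replicate 2 of them or replicate 1 of the 5 d spheres, and the 16 h rise of MRPS2 was also lost under quantile normalization. Without the variance trend MRPL35 and MRPL42 were so called, and with total-read scaling 3 other members, MRPL13, MRPL33 and MRPL51. In the main fit 4.41% of all genes tested were called in opposite directions, beside 6.76% of the members. The cause was not tested.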

How the results depend on the processing

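For 16 h spheres 30 members were called, 19 with DESeq2 and 19 to 32 with 1 library left out (19 without adherent replicate 1 or 2). For 5 d spheres 38 were called, 28 to 38 with 1 library left out. Between the sphere times 31 were called, 19 without the variance trend and 24 to 31 with 1 library left out. With siSCIRT#1 the count of 1 ranged from 1 to 2 (2 without siNC replicate 2 or column si1). With siSCIRT#2 the count of 2 was 1 without the trend and 1 to 6 with 1 library left out (6 without siNC replicate 2, and 1 without siNC replicate 1 or 3 or any siSCIRT#2 replicate). For the mean of both siRNAs the count of 2 ranged from 1 to 7 (7 without siNC replicate 2, 6 of them lower, 4 without column si1, and 1 without siNC replicate 1 or 3). With siEZH2 the count of 3 was 0 without the trend, 1 with total-read scaling and 0 to 4 with 1 library left out (0 without siNC replicate 1). The cause was not tested.

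For 16 h spheres DESeq2 also called fewer of all genes tested, 46.1% beside 53.9% in limma. With the replicate block 4 members were called with siSCIRT#2 and 1 with siEZH2, and the culture counts did not change. Deviations of samples with the same replicate number correlated at -0.009 to 0.019 in the culture table and at -0.085 in the siEZH2 table. With 2 libraries a group, both replicates give the same value. Between siNC and siSCIRT#2 the correlations were all positive, at 0.205, 0.124 and 0.057 for replicates 1, 2 and 3. Whether the numbers pair the samples was not tested. No paired analysis was possible for siSCIRT#1 because its columns carry no numbers. No named member had its call reversed, which does not cover the comparison lists. Of the counts of members called, 75 of 82 under other alternatives stayed within 1.5 times. With 1 library left out 43 such counts did so, while 10 were lower and 5 higher by more than that. Low counts limit MRPS24, MRPS17 and MRPL12.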
